A study of Homo sapiens with 27 samples.

Results

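ZC3H12B and TUSC3 were the genes that differed most clearly between REH cells treated with GapmeR1 and with GapmeR2 against the long noncoding RNA lnc-TIMM21-5. ZC3H12B was nearly lost with GapmeR1 and TUSC3 was lower with GapmeR2. Both were chosen by these measured values, which are therefore given here as a description with no test. Their paralogs ZC3H12A, ZC3H12C, ZC3H12D and MAGT1 were added by homology, which makes 6 genes of the 60619 counted, and 5 of the 6 passed a filter on low counts that kept 16268 genes. RNA sequencing covered 27 samples of REH, an established human B-cell precursor leukemia line in which every group shares the ETV6/RUNX1 fusion. Cells were harvested after 72 hours with medium alone (2 samples), with a non-targeting GapmeR (NTC, 3 samples), or with GapmeR1 or GapmeR2 against lnc-TIMM21-5 (3 and 3 samples), lnc-NKX2-3-1 (2 and 3), lnc-RTN4R-1 (3 and 3) or lnc-ASTN1-1 (3 and 2), each GapmeR at 10 µM and taken up without a transfection reagent. Medium and NTC together were the 5 controls. The study's methods state that replicates were run on different days. A single cell line stood behind all groups, so spread between samples is spread between cultures of REH.

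The members fall into 2 families. ZC3H12A, ZC3H12B, ZC3H12C and ZC3H12D encode the Regnase proteins, which join a CCCH zinc finger to an RNA-cutting domain. ZC3H12A, the best known of them, degrades mRNAs of inflammatory genes, and ZC3H12D is known mainly from lymphocytes. TUSC3 and MAGT1 encode alternative oxidoreductase subunits of the oligosaccharyltransferase, the enzyme complex that attaches sugar chains to asparagines of proteins entering the endoplasmic reticulum. Both have also been described as magnesium transporters. In an LNA GapmeR, locked nucleic acids flank a stretch of DNA that pairs with the target RNA. RNase H cuts RNA paired with that DNA, in the nucleus as well as in the cytoplasm, so that introns of a primary transcript can also be paired with a GapmeR.

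Total counts on the sense strand ranged from 14627110 to 22750945 per sample, and 95.2% to 95.4% of the reads assigned to genes lay on that strand. Of 9 B-cell precursor markers, 8 were counted in every sample, and VPREB1 was listed at 0 throughout. Of the T-cell genes, CD3D and CD3G had 0 counts in every sample and CD3E had 1 to 11. Of the myeloid genes, LYZ had 0 to 6 counts, CD14 3 to 16 and CSF1R 6 to 46, and the erythroid genes HBB and HBA1 had at most 1. The targeted lncRNA itself had 20 and 40 sense counts in medium and 32, 27 and 20 in NTC. It had 2, 10 and 6 counts with GapmeR1 and 7, 5 and 1 with GapmeR2, so all 6 samples lay below every control, at 18.4% and 13.1% of the mean CPM (sense reads scaled to the normalised size of each library) of the controls. The ranges of the GapmeRs overlapped for the lncRNA, while ZC3H12B and TUSC3 parted between them.

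The GapmeR sequences are shown because these GapmeRs are the only labelled difference between the groups in which ZC3H12B and TUSC3 parted. Sequences run from 5′ to 3′, and capitals mark the 8 bases shared by both GapmeRs.
lnc-TIMM21-5 GapmeR1: AATTTTGCatttggta
lnc-TIMM21-5 GapmeR2: gtcactttAATTTTGC
Their target sites overlapped in an exon of lnc-TIMM21-5 (NETO1-DT, ENSG00000263958) on the plus strand of hg38. The sites are printed with 7 bases on each side, and capitals mark the bases that pair with the GapmeR.
GapmeR1 site, chr18:72881256-72881285: tctggaaTACCAAATGCAAAATTaaagtga
GapmeR2 site, chr18:72881264-72881293: accaaatGCAAAATTAAAGTGACtacaagc
ZC3H12B (ENSG00000102053, X:65034788-65507887, plus strand) also held a run of bases complementary to GapmeR1. Its 15 bases paired with bases 1 to 15 of the 16 in the GapmeR and lay in intron 2 of 9, 47443 bases from the start of the gene.
ZC3H12B, chrX:65082224-65082252: agtacaaACCAAATGCAAAATTagtagaa
The last base of GapmeR1 was the only mismatch there over its full length. A run of 15 or more bases complementary to GapmeR1 was found in 8 of 16024 tested genes with an annotated position (0.0499%), and in 4 of 698 genes (0.573%) whose length was within 2-fold of the 473 kb of ZC3H12B. In the annotated transcripts of ZC3H12B, without introns, the longest run for GapmeR1 was 7 bases. With GapmeR2 the longest run in ZC3H12B was 11 bases, introns included.

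ZC3H12B was counted at 132 and 100 sense reads in medium and at 122, 112 and 133 in NTC. With lnc-TIMM21-5 GapmeR1 it was counted at 4, 6 and 4, and with GapmeR2 at 135, 145 and 141. All 3 GapmeR1 samples lay far below every control, and the GapmeR2 samples lay among the controls. On the CPM scale the level was 6.74 ± 0.72 in the controls (SD, n = 5), 0.229 ± 0.066 with GapmeR1 (n = 3) and 6.56 ± 0.22 with GapmeR2 (n = 3). This left 3.39% of the control mean with GapmeR1 and 97.2% with GapmeR2. The log2 fold change was -4.86 (SE 0.21) for GapmeR1 and -0.04 (SE 0.12) for GapmeR2 against the controls, and -4.82 (SE 0.22) between the GapmeRs. Called genes made up 0.209% of the genes tested for GapmeR1, 0.0676% for GapmeR2 and 0.141% between them, where called means an adjusted p-value under 0.05 in edgeR's quasi-likelihood test. By p-value ZC3H12B stood in place 1 of 16268 genes for GapmeR1 and between the GapmeRs, which is how it was chosen. The gene next to it for GapmeR1 was a Y RNA copy (ENSG00000212556), at a log2 fold change of -2.13. In these bulk samples, fewer cells that express a gene and less RNA per cell cannot be told apart.

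**Figure D1:**
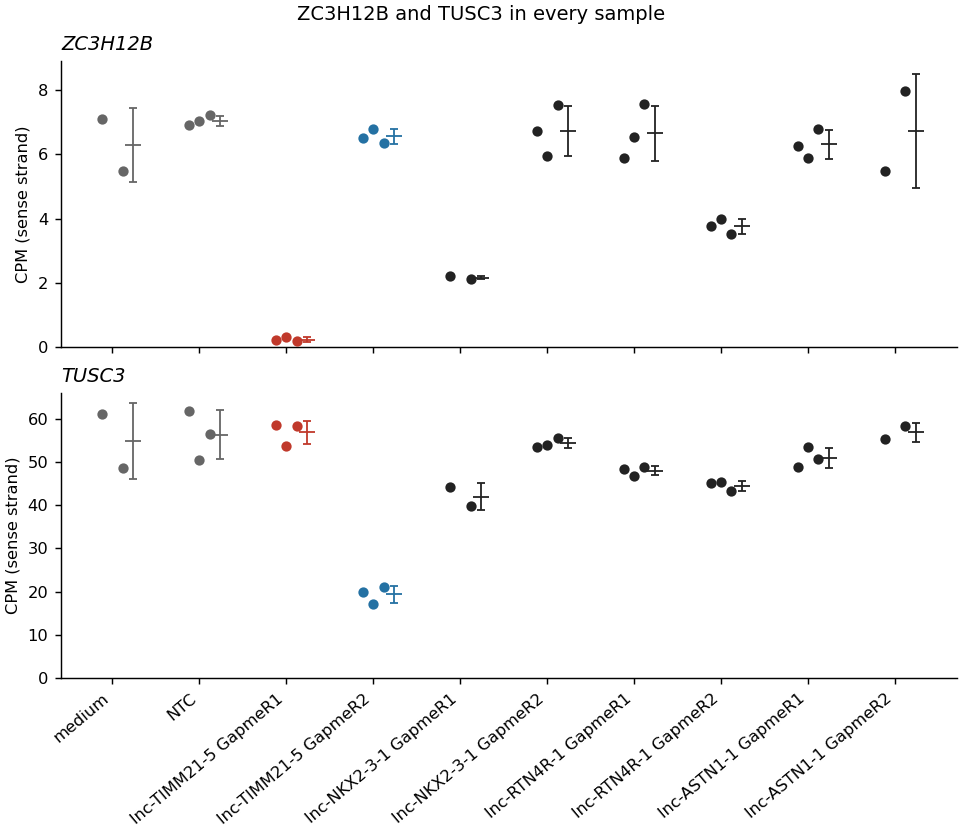
Sense-strand CPM of ZC3H12B (upper panel) and TUSC3 (lower panel) in the 27 samples of the 10 treatment groups, with one point per sample and the group mean ± SD beside the points. ZC3H12B sat at 0.171 to 0.301 CPM with lnc-TIMM21-5 GapmeR1 (red) and TUSC3 at 17.3 to 21.0 CPM with GapmeR2 (blue), both below every other sample.

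The other GapmeRs were not used to choose ZC3H12B, and 2 of those 6 also changed it. With lnc-NKX2-3-1 GapmeR1 it had 48 and 41 sense reads, and with lnc-RTN4R-1 GapmeR2 it had 65, 72 and 61. All 5 of these samples lay below every control, and the 2 groups did not overlap each other. ZC3H12B fell to 2.16 ± 0.053 CPM with lnc-NKX2-3-1 GapmeR1 (SD, n = 2), a log2 fold change of -1.64 (SE 0.17, adjusted p = 7.5e-08 in edgeR). It fell to 3.76 ± 0.24 CPM with lnc-RTN4R-1 GapmeR2 (n = 3), a log2 fold change of -0.84 (SE 0.14, adjusted p = 0.00012). These were comparisons with many called genes, 19.7% of all genes tested for lnc-NKX2-3-1 GapmeR1 and 9.56% for lnc-RTN4R-1 GapmeR2.

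With the other GapmeR against each of these lncRNAs, ZC3H12B did not pass the test. It had 151, 107 and 128 reads with lnc-NKX2-3-1 GapmeR2 and 112, 137 and 146 with lnc-RTN4R-1 GapmeR1. The log2 fold changes were -0.001 (SE 0.12, adjusted p = 0.999) and -0.02 (SE 0.12, adjusted p = 0.991), where 0.0307% and 2.32% of all genes were called. Tested directly, GapmeR1 was lower than GapmeR2 of lnc-NKX2-3-1 by a log2 fold change of -1.64 (SE 0.18, adjusted p = 2.5e-07), in a comparison where 17.8% of genes were called. GapmeR1 of lnc-RTN4R-1 was higher than GapmeR2 by 0.82 (SE 0.15, adjusted p = 0.00045), where 9.09% of genes were called.

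ZC3H12B did not pass the test with either lnc-ASTN1-1 GapmeR. It had 109, 85 and 132 reads with GapmeR1 and 99 and 139 with GapmeR2. On the CPM scale the GapmeR1 samples lay within the range of the controls, and the GapmeR2 samples lay at 5.47 and 7.97, just below and above it. The log2 fold changes were -0.09 (SE 0.13, adjusted p = 1) and -0.01 (SE 0.14, adjusted p = 1), where 1.2% and 0.0184% of genes were called. In the order of the 10 group means, lnc-TIMM21-5 GapmeR1, lnc-NKX2-3-1 GapmeR1 and lnc-RTN4R-1 GapmeR2 came lowest, each with a range separate from the next. The other 7 groups, from medium at 6.29 to NTC at 7.05 CPM, each overlapped their neighbours in that order.

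The complementary runs of the GapmeRs that lowered ZC3H12B outside lnc-TIMM21-5 were shorter. Their sequences are printed for comparison with lnc-TIMM21-5 GapmeR1, in lower case because no long match in ZC3H12B was found.
lnc-NKX2-3-1 GapmeR1: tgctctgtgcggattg
lnc-RTN4R-1 GapmeR2: tgctgagacatctagg
Each had a longest run of 10 bases in ZC3H12B, introns included, which 12.5% and 22.1% of all genes matched or exceeded, and 60.6% and 86.7% of genes of like length. For lnc-NKX2-3-1 GapmeR1 the 10-base run lay in the annotated transcripts as well, where 2.27% of genes held one as long. The other 5 GapmeRs, with which ZC3H12B stayed at 93.5% to 99.9% of the control mean, had runs as long or longer, of 11 bases for 4 of them and 10 for lnc-RTN4R-1 GapmeR1. Gene length moved with the result in both groups. Of the 698 genes within 2-fold of the length of ZC3H12B, 47.4% were called lower with lnc-NKX2-3-1 GapmeR1 against 11.6% of all genes, with a median log2 fold change of -0.41. With lnc-RTN4R-1 GapmeR2 the shares were 31.8% and 5.27%, and the median for genes of like length was -0.22. The changes of ZC3H12B, -1.64 and -0.84, were thus larger than these medians. The part of gene length, of complementary bases and of each lncRNA in these changes was not tested.

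Reads over the exons of ZC3H12B were found on both strands in nearly equal number. Over all 27 samples, 2666 reads lay on the sense strand and 3223 on the opposite strand, so that 54.7% were opposite. The median of tested genes was 0.294%, and 4.71% of them had an opposite share as high. The opposite reads numbered 144, 131 and 153 with lnc-TIMM21-5 GapmeR1, against 95 and 129 in medium and 134, 77 and 128 in NTC. The opposite strand was thus as high with GapmeR1 as in the controls, at 6.94 ± 0.66 CPM (SD, n = 3) against 6.31 ± 1.2 (n = 5), while the sense strand was nearly lost.

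The share of ZC3H12B reads on the sense strand went from 51.9% ± 6.7 in the controls (SD, n = 5) to 3.21% ± 1.0 with lnc-TIMM21-5 GapmeR1 (n = 3). It was 29.8% ± 3.5 with lnc-NKX2-3-1 GapmeR1 (n = 2) and 42.2% ± 4.1 with lnc-RTN4R-1 GapmeR2 (n = 3), and 48.4% to 52.7% in the means of the other 5 GapmeR groups. Opposite reads with lnc-NKX2-3-1 GapmeR1 numbered 101 and 109, and with lnc-RTN4R-1 GapmeR2 103, 82 and 87. Their mean CPM was 81.4% and 82.1% of that of the controls, with ranges that overlapped the controls.

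**Figure D2:**
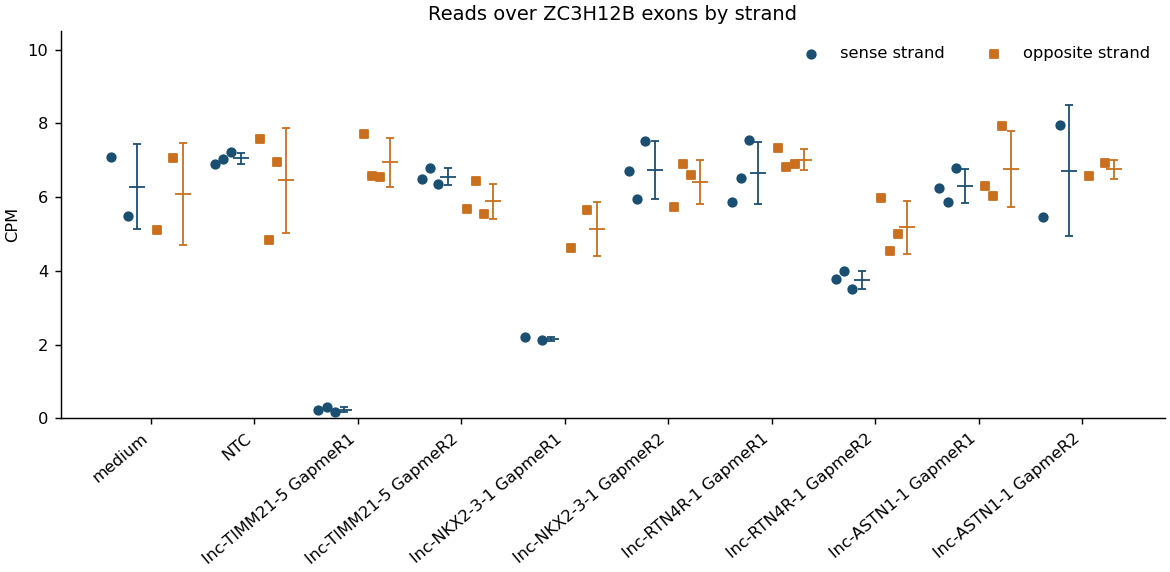
CPM of reads over ZC3H12B exons on the sense strand (circles) and on the opposite strand (squares) in each sample of the 10 groups, with the mean ± SD beside the points. The sense strand dropped to 0.229 CPM with lnc-TIMM21-5 GapmeR1, whereas the opposite strand stayed at 6.94 CPM there.

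LAS1L, a gene of ribosome maturation on the minus strand (X:65438549-65534810), overlaps the last 69339 bases of ZC3H12B in the annotation, and their exons share 42 bases. In 24 of 27 samples the unstranded count of ZC3H12B equalled the sum of both strands, and in the other samples it was lower by at most 2 reads. Nearly all of the opposite reads thus overlapped no exon of another counted gene. This comparison covers exons only, so reads within introns of LAS1L would not show in it. LAS1L was at 90.4 ± 7.9 CPM in the controls (SD, n = 5) and at 87.6 ± 5.5 with lnc-TIMM21-5 GapmeR1 (n = 3). The transcript that gave the opposite reads is not named by the counts. Counted without regard to strand, the log2 fold change of ZC3H12B was -0.86 (SE 0.10) with lnc-TIMM21-5 GapmeR1 in place of -4.86. With lnc-NKX2-3-1 GapmeR1 it was -0.83 (SE 0.12, adjusted p = 8.9e-06 in edgeR) and with lnc-RTN4R-1 GapmeR2 -0.54 (SE 0.10, adjusted p = 0.00063), so both calls were kept at smaller folds.

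Genes around ZC3H12B did not pass the test with the lnc-TIMM21-5 GapmeRs. Within 1 Mb of it, 8 of 39 annotated genes were tested, and 0 were called for GapmeR1, GapmeR2 or the difference between them. At unadjusted p-values, 955, 540 and 325 of the 16268 genes had p under 0.05 in these comparisons. With GapmeR1 the log2 fold change was 0.01 for ZC4H2 and 0.01 for MSN, the gene of the membrane linker moesin, beside -0.04 for LAS1L. MIR223HG, ASB12 and TLE1P1, each under 1 CPM in the controls, were at 0.77, 0.54 and 0.35.

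TUSC3 was counted at 1137 and 888 sense reads in medium and at 1094, 803 and 1042 in NTC. With lnc-TIMM21-5 GapmeR2 it was counted at 414, 368 and 466, and with GapmeR1 at 1094, 1070 and 1362. All 3 GapmeR2 samples lay below every control, and the GapmeR1 samples lay among the controls. The level was 55.7 ± 6.0 CPM in the controls (SD, n = 5), 19.4 ± 1.9 with GapmeR2 (n = 3) and 56.9 ± 2.7 with GapmeR1 (n = 3). This left 34.8% of the control mean with GapmeR2 and 102% with GapmeR1. The log2 fold change was -1.52 (SE 0.08) for GapmeR2 and 0.03 (SE 0.07) for GapmeR1 against the controls, and 1.55 (SE 0.09) for GapmeR1 less GapmeR2. Opposite reads were 0 or 1 in every sample. As for ZC3H12B, these values chose the gene, which stood in place 1 of 16268 by p-value for GapmeR2 and in place 2 between the GapmeRs. CLASP2, next to it for GapmeR2, had a log2 fold change of -1.15.

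TUSC3 (ENSG00000104723) lies on chromosome 8 at 15417215 to 15766649, plus strand, and spans 349 kb. It held a site for lnc-TIMM21-5 GapmeR2 with 1 mismatch over all 16 bases, at 8:15761362-15761377 in intron 10 of 10, 344147 bases from the start of the gene. A site with at most 1 mismatch was found in 0.131% of the genes tested, and in 1.08% of the 1116 genes within 2-fold of its length. Its longest run with no mismatch for GapmeR2 was 13 bases, at 8:15563183-15563195 in intron 1, and 1.19% of all genes and 6.54% of genes of like length held a run as long. For GapmeR1 its longest run was 12 bases, which 5.96% of all genes and 29.7% of genes of like length held, and its best full-length site had 2 mismatches. In the annotated transcripts the longest runs were 9 bases for GapmeR2 and 8 for GapmeR1. ZC3H12B and TUSC3 thus each held a site with 1 mismatch, in an intron, for the GapmeR that went with their lower count. The part of these sites in the lower counts was not tested.

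Beyond lnc-TIMM21-5, TUSC3 passed the test with the same 2 GapmeRs as ZC3H12B. It had 965 and 768 reads with lnc-NKX2-3-1 GapmeR1 and 777, 817 and 750 with lnc-RTN4R-1 GapmeR2. On the CPM scale these were 44.2 and 39.8, and 45.0, 45.3 and 43.2, and the lowest control was at 48.6. All 5 samples thus lay below every control. TUSC3 fell by 0.41 on the log2 scale with lnc-NKX2-3-1 GapmeR1 (SE 0.09, adjusted p = 0.0014 in edgeR), and by 0.32 with lnc-RTN4R-1 GapmeR2 (SE 0.08, adjusted p = 0.0060). Of all genes tested, 19.7% and 9.56% were called in these comparisons. GapmeR1 of lnc-NKX2-3-1 was lower than GapmeR2 by a log2 fold change of -0.37 (SE 0.09, adjusted p = 0.0071), where 17.8% of genes were called. Without replicate 2 of lnc-NKX2-3-1 GapmeR1, the sample at 39.8 CPM, adjusted p was 0.075 against the controls and 0.15 against GapmeR2. With replicates 1 and 2 only, the change with lnc-RTN4R-1 GapmeR2 was -0.29 (adjusted p = 0.051).

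TUSC3 with lnc-RTN4R-1 GapmeR1 was at 48.3, 46.9 and 48.9 CPM, 2 of 3 samples below every control. The log2 fold change was -0.22 (SE 0.08, adjusted p = 0.19). With the replicate number as a block in the fit, this change passed the test (adjusted p = 0.0084 in edgeR), where 1432 of 16268 genes were called. Its difference from GapmeR2 of lnc-RTN4R-1 was 0.11 (SE 0.08, adjusted p = 0.50). With lnc-NKX2-3-1 GapmeR2 and both lnc-ASTN1-1 GapmeRs, TUSC3 was at 48.8 to 58.3 CPM, every sample within the range of the controls. Among those 3 the log2 fold change furthest from 0 was -0.13 (SE 0.08, adjusted p = 0.80), with lnc-ASTN1-1 GapmeR1.

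Genes as long as TUSC3 were often lower in the same comparisons. With lnc-NKX2-3-1 GapmeR1, 433 of the 1116 genes of like length were called lower (38.8%, against 11.6% of all genes), with a median log2 fold change of -0.28. With lnc-RTN4R-1 GapmeR2 it was 276 of 1116 (24.7%, against 5.27% of all genes), with a median of -0.16. The longest runs of TUSC3 for these GapmeRs were 8 and 10 bases, which 100% and 80.4% of genes of like length held. The only tested neighbour within 1 Mb of TUSC3, out of 16 annotated genes, was MSR1, a scavenger receptor gene. It had log2 fold changes of -0.12 with lnc-TIMM21-5 GapmeR1 (adjusted p = 0.998) and -0.07 with GapmeR2 (adjusted p = 1).

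**Figure D3:**
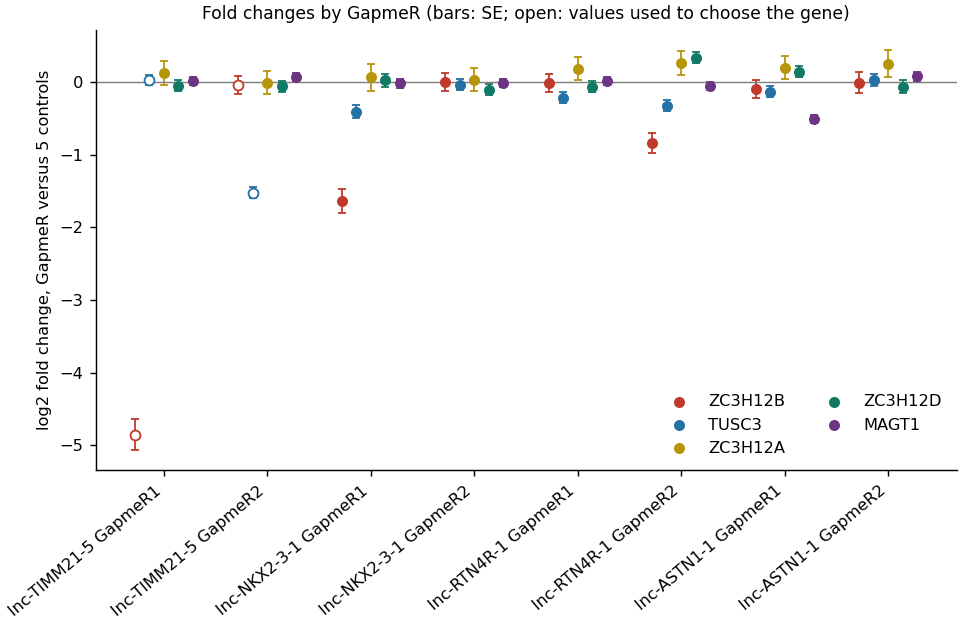
Log2 fold change of the 5 tested genes with each of the 8 GapmeRs against the 5 controls, with bars of 1 SE and open symbols for values that were used to choose a gene. ZC3H12B reached -4.86 with lnc-TIMM21-5 GapmeR1 and TUSC3 -1.52 with GapmeR2, and MAGT1 was lower only with lnc-ASTN1-1 GapmeR1 at -0.51.

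The paralogs were not chosen by their values, and none passed the test with either lnc-TIMM21-5 GapmeR or between the GapmeRs. Their log2 fold changes there, 9 values for 3 genes, ran from -0.06 to 0.13. ZC3H12A (ENSG00000163874, 1:37474580-37484377) had 148 and 149 reads in medium and 130, 98 and 163 in NTC, and 130, 146 and 252 with lnc-TIMM21-5 GapmeR1 and 152, 142 and 199 with GapmeR2. Its groups overlapped, at 7.69 ± 1.0 CPM (SD, n = 5), 8.36 ± 2.1 (n = 3) and 7.66 ± 1.2 (n = 3). It passed the test with 0 of 8 GapmeRs, and its largest difference from the controls was 0.26 (SE 0.16, adjusted p = 0.37) with lnc-RTN4R-1 GapmeR2.

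ZC3H12D (ENSG00000178199, 6:149446795-149485014) was the most abundant of the Regnase genes. It was at 73.3 ± 5.7 CPM in the controls (SD, n = 5), 70.7 ± 6.0 with lnc-TIMM21-5 GapmeR1 and 70.4 ± 1.8 with GapmeR2 (n = 3 each), where the samples overlapped. ZC3H12D rose with lnc-RTN4R-1 GapmeR2, in which its 3 samples were at 85.2, 92.9 and 99.04 CPM and the highest control was at 79.2. The log2 fold change was 0.33 (SE 0.08, adjusted p = 0.0044 in edgeR), and GapmeR1 of lnc-RTN4R-1 was lower than GapmeR2 by -0.40 (SE 0.08, adjusted p = 0.0029). With replicates 1 and 2 only, that difference was -0.29 (adjusted p = 0.062). Of all genes tested, 9.56% were called for lnc-RTN4R-1 GapmeR2 against the controls and 9.09% between the GapmeRs. ZC3H12B fell in the same 3 samples of lnc-RTN4R-1 GapmeR2. With the other 7 GapmeRs the adjusted p-value of ZC3H12D was at least 0.74.

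ZC3H12C (ENSG00000149289, 11:110093392-110171841) had 0 to 4 counts per sample and 38 in all, and was not tested. Per kilobase of merged exons, a scale on which genes can be compared, ZC3H12D was at 10.96 ± 0.85 CPM in the controls (SD, n = 5), ZC3H12A at 2.49 ± 0.33, ZC3H12B at 0.666 ± 0.071 and ZC3H12C at 0.00905 ± 0.0085. On the same scale MAGT1 was at 17.4 ± 1.0 and TUSC3 at 10.7 ± 1.2. ZC3H12B was therefore a minor Regnase transcript in REH cells, whereas TUSC3 and MAGT1 were at levels of the same order.

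MAGT1, the alternative to TUSC3 in the oligosaccharyltransferase, did not pass the test where TUSC3 was lowest. MAGT1 was counted at 2100 and 2109 in medium, 2213, 1764 and 2322 in NTC, and 2613, 2482 and 2865 with lnc-TIMM21-5 GapmeR2. This was 118 ± 7.0 CPM in the controls (SD, n = 5) and 124 ± 6.7 with GapmeR2 (n = 3), and the groups overlapped. The log2 fold change was 0.07 (SE 0.05, adjusted p = 1). MAGT1 changed with 1 GapmeR, lnc-ASTN1-1 GapmeR1, where its 3 samples had 1439, 1194 and 1622 reads. They lay at 82.5, 82.6 and 83.5 CPM, below the lowest control at 111. The log2 fold change was -0.51 (SE 0.06, adjusted p = 1.9e-06 in edgeR), and GapmeR1 was lower than GapmeR2 of lnc-ASTN1-1 by -0.59 (SE 0.07, adjusted p = 6.8e-06, where 0.553% of genes were called). In that comparison with the controls 1.2% of all genes were called.

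**Figure D4:**
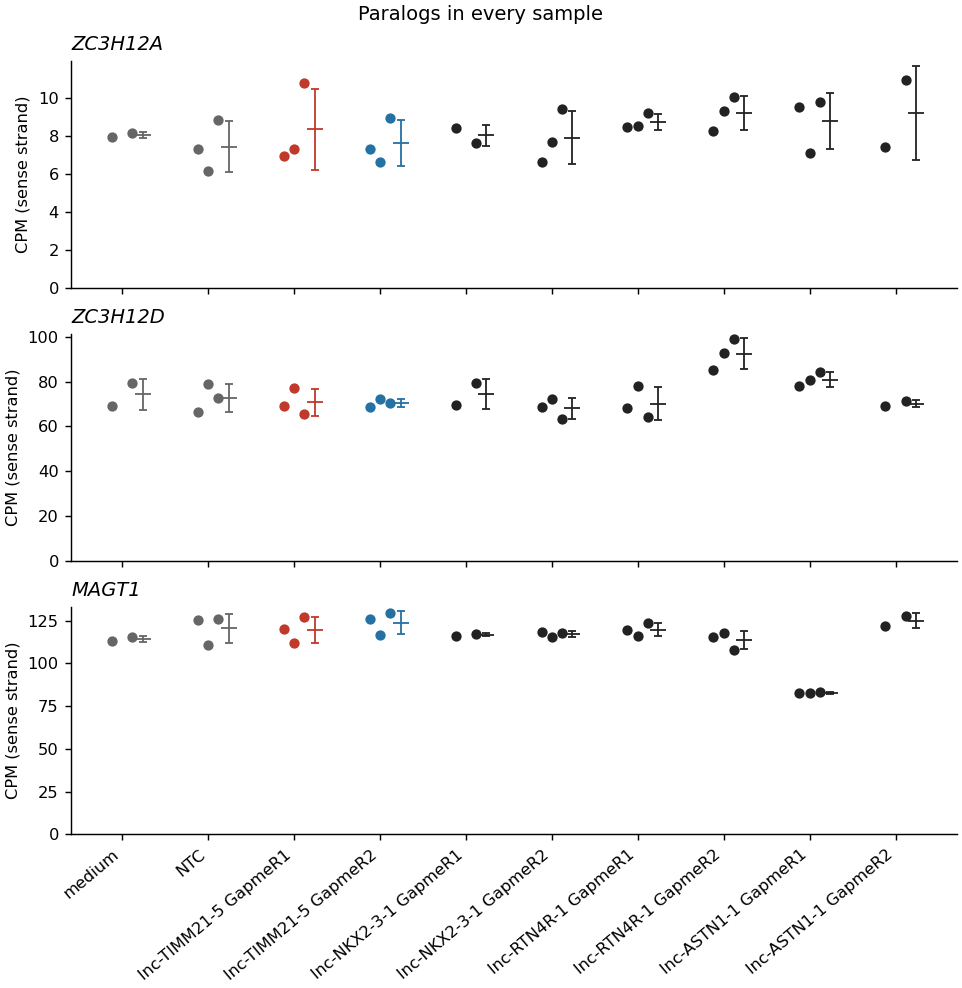
Sense-strand CPM of ZC3H12A, ZC3H12D and MAGT1 in each sample of the 10 groups, with the group mean ± SD beside the points. MAGT1 was at 82.5 to 83.5 CPM with lnc-ASTN1-1 GapmeR1 and ZC3H12D at 85.2 to 99.04 CPM with lnc-RTN4R-1 GapmeR2, both outside the range of the controls.

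MAGT1 (ENSG00000102158, X:77825747-77899271, minus strand) held 12 bases complementary to lnc-ASTN1-1 GapmeR1 in an untranslated exon, 73264 bases from the start of the gene. The GapmeR is printed with the paired bases in capitals, and below it the site in MAGT1 on the minus strand.
lnc-ASTN1-1 GapmeR1: TAATCTGCCAGGagtg
MAGT1, chrX:77825996-77826007: CCTGGCAGATTA
A run of 12 or more bases was found in 2.11% of the genes tested and, in their annotated transcripts without introns, in 0.356%. Over all 16 bases of the GapmeR, this site in MAGT1 had 4 mismatches. The best full-length site in MAGT1 had 3, and 23.3% of the genes tested and 37.0% of genes of like length held one with as few. With the other 7 GapmeRs the longest run in MAGT1 was 8 to 11 bases. Of the 276 genes with a longest run of 12 bases for this GapmeR, 42 were called lower (15.2%), against 51 of 14598 genes with runs of at most 10 bases (0.349%). MAGT1 was one of those 42 genes. The runs include introns, and gene length was not held equal between these sets. With this GapmeR, 5.44% of genes within 2-fold of the length of ZC3H12B were called lower, against 0.986% of all genes. The part of the MAGT1 site in its lower count was not tested.

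Not every gene with a long run passed the test. A run of 15 or 16 bases for lnc-TIMM21-5 GapmeR1 was held by 8 genes, named for that run after the values were seen. NETO1-DT, MDGA2 and ATG10 were called lower. ZC3H12B was lower too, but was chosen by that value and is not counted as a call. DNM3, with a run of 16 bases, had a log2 fold change of -0.65 (SE 0.23, adjusted p = 0.59) at 2.57 CPM in the controls, and SPAG16, with 15, had -0.08 (SE 0.10, adjusted p = 0.999) at 21.7 CPM. RAB11A, also with 15, was at 0.00 (SE 0.08, adjusted p = 0.999) at 108 CPM. MIR29B2CHG, with 15 as well, had -0.62 (SE 0.34, adjusted p = 0.90 in edgeR) at 1.36 CPM. For GapmeR2, 3 of the 5 genes with runs of 15 or 16 bases were called lower. Of the 155 genes with a longest run of 13 bases, 2 were lower past the threshold (1.29%). TUSC3 is 1 of those 2 and was chosen by its value, so this share is a description only. Among genes with runs of at most 10 bases, 0.0594% were called lower for GapmeR1 and 0.0222% for GapmeR2. Gene length was not held equal between these sets either.

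**Figure D5:**
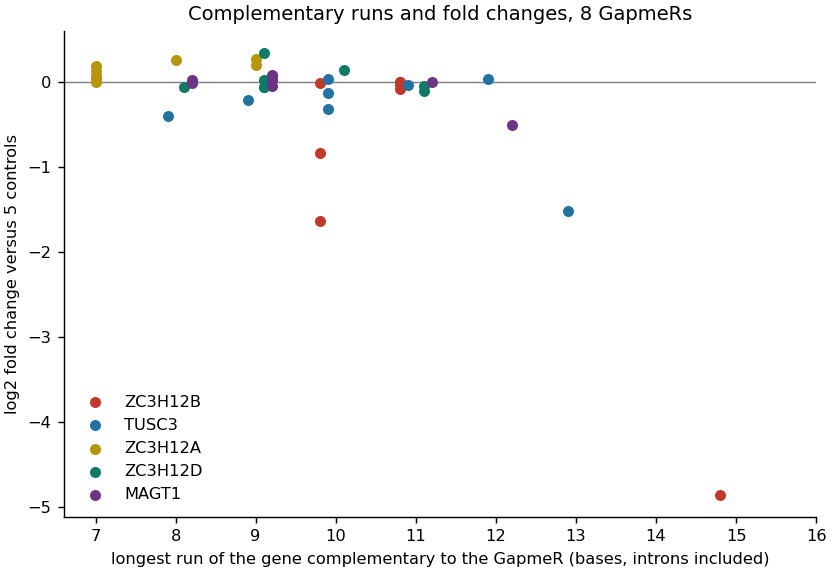
Longest run of each gene that is complementary to a GapmeR, in bases with introns included, against its log2 fold change with that GapmeR, for the 5 tested genes and 8 GapmeRs; points are shifted slightly sideways by gene. The runs of 12 bases or more gave 4 points, at -4.86 (ZC3H12B), -1.52 (TUSC3), -0.51 (MAGT1) and 0.03 (TUSC3 with lnc-TIMM21-5 GapmeR1). All of these but the MAGT1 point were among the values used to choose the genes, and are not marked apart here.

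In the main fit, without the replicate number as a block, no other listed gene of the pathways passed the test with the lnc-TIMM21-5 GapmeRs. Of the 12 subunit genes of the oligosaccharyltransferase, 11 were counted here without TUSC3, and 0 passed the test with GapmeR1, with GapmeR2 or between them, with medians of 0.03, 0.02 and 0.02 on the log2 scale beside 0.00 over all genes. With lnc-NKX2-3-1 GapmeR1, 3 of the 11 passed, where 19.7% of all genes were called. STT3B, the catalytic subunit that works with TUSC3 or MAGT1, rose by 0.28 (SE 0.08, adjusted p = 0.017 in edgeR). DDOST fell by 0.22 (SE 0.07, adjusted p = 0.031) and OSTC fell by 0.26 (SE 0.09, adjusted p = 0.043). With lnc-RTN4R-1 GapmeR2, where TUSC3 was lower, 0 of the 11 passed. Of the 21 tested genes that build the lipid-linked sugar precursor, 1 passed in 1 comparison, ALG9, a mannosyltransferase gene, which fell by 0.59 with lnc-NKX2-3-1 GapmeR1 (SE 0.11, adjusted p = 0.00029).

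Of 11 tested magnesium transport genes, 0 passed with either lnc-TIMM21-5 GapmeR or between them. With lnc-ASTN1-1 GapmeR1, TRPM7, a channel and kinase that carries magnesium, fell by 0.23 (SE 0.06, adjusted p = 0.048) together with MAGT1. With lnc-RTN4R-1 GapmeR2, NIPA1 fell by 0.55 (SE 0.06, adjusted p = 5.2e-07) and SLC41A1 rose by 0.27 (SE 0.07, adjusted p = 0.0084). With lnc-NKX2-3-1 GapmeR1, SLC41A3 and CNNM4 were lower and CNNM3 was higher. Of all genes tested, 1.2% were called for lnc-ASTN1-1 GapmeR1, 9.56% for lnc-RTN4R-1 GapmeR2 and 19.7% for lnc-NKX2-3-1 GapmeR1.

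Regnase partners and other regulators of mRNA decay did not pass the test with the lnc-TIMM21-5 GapmeRs (0 of 15 tested in each comparison), nor did 6 tested transcripts known as targets of Regnase proteins. With lnc-NKX2-3-1 GapmeR1, 6 of the 15 regulators rose and 1 fell, where 19.7% of all genes were called, and their median log2 fold change was 0.13 beside 0.00 over all genes. ZFP36L2 rose by 0.74 (SE 0.10, adjusted p = 3.9e-06), RC3H1, which encodes Roquin-1, rose by 0.42 (SE 0.07, adjusted p = 8.8e-05), and USP10 fell by 0.34 (SE 0.10, adjusted p = 0.012). With lnc-RTN4R-1 GapmeR2, ZC3H12D and NYNRIN rose, and MALT1, the protease that cleaves Regnase-1, fell by 0.40 with lnc-ASTN1-1 GapmeR1 (SE 0.05, adjusted p = 4.8e-05). Among the target transcripts, NFKBIZ rose by 1.12 with lnc-NKX2-3-1 GapmeR1 (SE 0.21, adjusted p = 0.00054). TFRC, the transferrin receptor gene, rose by 0.45 with that GapmeR (SE 0.10, adjusted p = 0.0020) and by 0.33 with lnc-RTN4R-1 GapmeR2 (SE 0.09, adjusted p = 0.015), where 19.7% and 9.56% of all genes were called. ICOS was called higher with lnc-RTN4R-1 GapmeR1 on 8, 5 and 13 counts, with at most 4 in any control. Of all genes tested, 2.32% were called for that GapmeR and 1.2% for lnc-ASTN1-1 GapmeR1.

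For ZC3H12B and for TUSC3, 1 of the 10 groups lay far from the rest. The genes whose pattern was most like each were found by Pearson correlation of mean log2 CPM over these groups. For ZC3H12B they included a Y RNA copy (ENSG00000212556, r = 0.98), SYNE1 (0.93), ENSG00000279456 (0.93) and FBXO33 (0.91). Over the 27 samples, each less the mean of its replicate number, the Y RNA copy and FBXO33 stayed in places 1 and 2, at 0.96 and 0.91, while SYNE1 and ENSG00000279456 went to places 10 and 29. SYNE1 held a run of 13 bases for lnc-TIMM21-5 GapmeR1 (0.967% of genes held one as long), FBXO33 a run of 8, and the Y RNA copy a run of 4. This copy lies within a lncRNA gene (ENSG00000287784) on the same strand, and its run covers the copy alone. For TUSC3 the most like genes were HPGD (0.93), CLASP2 (0.93), EP400 (0.90), TMEM18 (0.90) and ASXL2 (0.90), and 4 of them stayed among the first 5 over 27 samples. HPGD held a run of 15 bases for lnc-TIMM21-5 GapmeR2 (0.0312% of genes held one as long), CLASP2 and TMEM18 runs of 14 (0.218%), ASXL2 a run of 13 and EP400 a run of 10. The lnc-TIMM21-5 groups by which ZC3H12B and TUSC3 were chosen weigh most in these correlations.

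Between NTC and medium, 0 of the 5 tested members passed. In the main edgeR fit and in DESeq2, 0 of 16268 genes were called (percent called 0). In that edgeR fit, 575 genes had an unadjusted p under 0.05. With the replicate number as a block 11 genes were called, and with no low-count filter 96 of 34666. ZC3H12B was at 6.90, 7.04 and 7.21 CPM in NTC and at 7.10 and 5.48 in medium, a log2 fold change of 0.16 (SE 0.16, adjusted p = 0.89). TUSC3 was at 61.9, 50.5 and 56.5 CPM in NTC and at 61.1 and 48.6 in medium, a log2 fold change of 0.04 (SE 0.09, adjusted p = 0.94), with overlapping samples in both genes.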

How the data were processed

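Per the labels and the study's methods, REH cells were treated as described and RNA was sequenced; the authors aligned reads to hg38 with STAR and deposited raw gene counts, unstranded and per strand. The labels name ribodepleted total RNA and the methods poly-A selection. The annotation release is not given in the sources used here. The sense column was used, since it held over 95% of reads. Members and lists were chosen with earlier results of these data known, and comparisons between both GapmeRs of lncRNAs other than lnc-TIMM21-5 were added after the data were seen.

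Counts of all 27 samples were fitted at once in edgeR 4.0.16 (R 4.3.3; TMM, filterByExpr with minimum count 10 and total 15, robust quasi-likelihood F test), with p-values adjusted by Benjamini-Hochberg over 16268 genes. The controls were weighted by sample number. Log2 CPM used a prior count of 2, and SEs came from the F statistics. The fit was tested on simulated data. Chi-square per degree of freedom between replicates was at least 3.21, so no pair agreed within sampling noise. GapmeR sequences came from the study's supplement, gene positions from GENCODE 44, which named 56434 of 60619 identifiers, and runs were searched on the sense strand of hg38. Genes named were the members, those most like ZC3H12B or TUSC3, tested genes within 1 Mb, and list members called (up to 4 per list and comparison); some genes that were named or listed are not reported here. Alternatives were DESeq2 1.42.0, RLE, no filter, own-samples fits, the replicate block, unstranded counts, replicates 1 and 2, NTC as the only controls, and each replicate left out. Intervals in the text cover the spread between these cultures of REH.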

Additional observations from a re-analysis of the deposited data

Results flagged for a closer look

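One control stood apart for ZC3H12B. Replicate 2 of medium was at 5.48 CPM, and its gap to the other 4 controls (6.90 to 7.21 CPM) was larger, relative to the whole range, than Dixon's critical value for 5 samples. Of 6 sets of 5 control values examined this way, 1 stood out, and chance gives about 1 in 20 such sets. Its opposite strand was at 7.07 CPM, within the range of the controls. Without that sample, ZC3H12B with lnc-TIMM21-5 GapmeR2 had a log2 fold change of -0.11.

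The GapmeRs against one lncRNA differed from each other in 5 further tests of the members. For lnc-NKX2-3-1, GapmeR1 less GapmeR2 was -1.64 for ZC3H12B and -0.37 for TUSC3. For lnc-RTN4R-1 it was 0.82 for ZC3H12B and -0.40 for ZC3H12D, and for lnc-ASTN1-1 it was -0.59 for MAGT1, all on the log2 scale and each past the threshold in edgeR. Of all genes tested, 17.8% were called between the GapmeRs of lnc-NKX2-3-1, 9.09% for lnc-RTN4R-1 and 0.553% for lnc-ASTN1-1.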

How the results depend on the processing

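Over 65 results and 940 alternative values, 929 kept their direction and side of the threshold, or moved by less than the replicate spread; 88 values of results with no call changed sign. Neither labels nor methods tie equal replicate numbers of different groups to each other. The main fit did not treat the samples as paired. Deviations from group means nevertheless went with the replicate number. They correlated at 0.26 on average between samples of the same number and -0.13 otherwise. Of 109 same-number pairs, 94 were over 0.1, with the lowest at -0.035, and 24 of 27 samples correlated best with their own number. This shared spread stayed in the error of the main fit. With the replicate number as a block, TUSC3 with lnc-RTN4R-1 GapmeR1 was at -0.22 and passed the test (adjusted p = 0.0084 in edgeR), and no other call of a member changed. The block raised the number of called genes, from 377 to 1432 for lnc-RTN4R-1 GapmeR1, for example. For lnc-TIMM21-5 it rose from 34 to 484 with GapmeR1 and from 11 to 95 with GapmeR2. Lists and neighbouring genes were read from the main fit alone. With replicates 1 and 2 only, TUSC3 with lnc-RTN4R-1 GapmeR2 was at -0.29 (adjusted p = 0.051), and ZC3H12D between the lnc-RTN4R-1 GapmeRs at -0.29 (adjusted p = 0.062), neither past the threshold, on fewer samples. On unstranded counts, which add the opposite strand, ZC3H12B was at -0.86 with lnc-TIMM21-5 GapmeR1 and at -0.80 between the GapmeRs. ZC3H12B with lnc-TIMM21-5 GapmeR2 was at 0.011 with replicates 1 and 2 only and at -0.10 with NTC as the only controls.

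Leaving out each replicate in turn gave -0.47 to -0.33 for TUSC3 with lnc-NKX2-3-1 GapmeR1 and -0.44 to -0.30 against GapmeR2, where the call was lost without replicate 2 of GapmeR1, which leaves 1 sample assumed to vary like the other groups. TUSC3 between the lnc-TIMM21-5 GapmeRs ranged from 1.47 to 1.61, and ZC3H12B with lnc-TIMM21-5 GapmeR2 from -0.11 to -0.0092. The cause of these shifts was not tested. ZC3H12B with lnc-TIMM21-5 GapmeR1 rests on 4 to 6 reads per sample, which limits the precision of its fold change.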
